A study of Mus musculus with 21 samples.

Results

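miR-22 was measured here as its 2 mature strands, miR-22-3p and miR-22-5p, which were taken by name from a table of 1903 named mature microRNAs. Both strands had counts in every one of 21 small RNA libraries of the mouse left ventricle, each from a different C57BL/6J animal, and both passed the filter on low counts that left 561 microRNAs for testing. Of these mice, 5 had a sham operation (Sham) and 16 had TAC, an operation that narrows the aorta and makes the left ventricle pump against a high pressure. After TAC, 5 mice stayed without a drug (TAC), 5 received sildenafil, which inhibits PDE5A (TAC+PDE5A-I), and 6 received PF-04449613, which inhibits PDE9A (TAC+PDE9A-I). Drug treatment lasted 4 weeks and began 1 week after the operation. The sources used here state no dose, age or sex, and no sham-operated mouse received a drug, so drug differences were measured in overloaded hearts alone. Total RNA came from flash-frozen left ventricle, a mixture of all its cell types, and libraries were made with the TruSeq small RNA kit.

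A microRNA is cut from a hairpin precursor whose arms give a 5p and a 3p strand. One strand, the guide, is usually kept by an Argonaute protein and pairs through its seed with messenger RNAs, which are then repressed, while the other strand, the passenger, is mostly degraded. miR-22-3p is the guide of its hairpin and is known as one of the abundant microRNAs of heart and skeletal muscle, with reported targets that include Sirt1, Hdac4 and Purb. Mice without miR-22 have been described to respond abnormally to pressure overload, and that is the stress applied in this study.

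The strand sequences are shown because the results turn on how unequally they were recovered, with the seed (bases 2 to 8) in capitals.

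miR-22-3p: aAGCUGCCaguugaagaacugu
miR-22-5p: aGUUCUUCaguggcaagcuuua

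The hairpin is shown with the bases of the 5p arm and then of the 3p arm in capitals.

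Mir22 hairpin: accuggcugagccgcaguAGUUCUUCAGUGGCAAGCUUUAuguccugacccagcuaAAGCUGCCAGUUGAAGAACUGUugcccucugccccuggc

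These RefSeq entries (GRCm38.p6) place the Mir22 hairpin on the plus strand of chromosome 11, at chr11:75463716-75463810, with the 5p strand at chr11:75463734-75463755 and the 3p strand at chr11:75463772-75463793. In GENCODE vM21 the hairpin lies inside exon 2 of both annotated transcripts of its non-coding host gene Mir22hg, and inside exon 2 of a non-coding transcript of the protein-coding gene Tlcd2. Both strands are 22 bases long, and they hold 45.5% (3p) and 40.9% (5p) G or C. In the minimum free energy structure predicted by RNAfold (-41.9 kcal/mol), 19 of the 22 bases of the 5p strand pair with the 3p strand, and 16 bases separate the arms. Neither seed occurred in another of the 1679 mature mouse microRNAs of that RefSeq table, so miR-22 has no seed family there.

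Total counts ran from 3766517 to 7490436 per Sham library and from 5373960 to 8497792 per TAC library. The lowest totals belonged to TAC+PDE5A-I replicates 3, 4 and 5 and to TAC+PDE9A-I replicate 5, which were the 4 libraries under 2000000 counts (1205417 to 1631406). These 4 libraries also had the highest count-weighted G and C content over the microRNAs with a sequence, 47.2% to 48.6%, against 44.6% to 46.0% in the rest. The edgeR and limma differences of miR-22 between TAC+PDE5A-I and each other group are also given without them. So are its edgeR differences in TAC against Sham. The same holds for the counts of called list members in TAC against Sham and TAC+PDE5A-I against TAC. None of the 4 listed markers of the heart muscle cell was at 0 throughout any group. Their sum, which is almost wholly miR-133a-3p, was 139495 to 177841 CPM in Sham, 77725 to 144048 in TAC, 140577 to 268958 in TAC+PDE5A-I and 72305 to 195331 in TAC+PDE9A-I. The other 3 had lower means in TAC+PDE5A-I than in Sham: 395 against 6532 CPM for miR-1a-3p, 46.9 against 780 CPM for miR-208a-3p and 113 against 1057 CPM for miR-499-5p. CPM here are counts scaled to a common library total after trimmed-mean (TMM) adjustment, and values are given as mean ± SD over mice.

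miR-22-3p was the microRNA with the most reads in 16 of the 21 libraries and ranked 3 in the other 5. As a rank of reads, the description of it as the most abundant heart microRNA held for every Sham library but not for every library. Reads from 1 kind of library rank what was recovered, and molecules in the tissue were not counted. Its share of all counts in Sham was 19.8%, 16.6%, 19.2%, 19.4% and 19.0% in replicates 1 to 5, a mean of 18.8% ± 1.25 (n = 5). The next in the Sham order were the muscle microRNA miR-133a-3p (13.8% ± 0.838), miR-486b-5p of muscle and red cells (10.5% ± 1.12) and miR-143-3p of smooth muscle (7.78% ± 0.916), and the Sham ranges of miR-22-3p and miR-133a-3p did not overlap. Reads of miR-486b-5p and its near-identical relative miR-486a-5p can be assigned to one another.

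In TAC the share of miR-22-3p was 12.8%, 16.8%, 17.4%, 18.8% and 17.3% in replicates 1 to 5. TAC replicate 1 was the lowest of the 5, and there miR-486b-5p (13.6%) and miR-143-3p (12.9%) lay above it. In TAC+PDE5A-I the share was 17.5% and 19.3% in replicates 1 and 2 and 11.9%, 9.63% and 7.90% in replicates 3, 4 and 5. The first pair lay within the range of Sham, and the other 3, all under 2000000 counts, lay below every Sham and TAC library. In those 3 libraries miR-486b-5p took 25.8%, 28.2% and 30.5% of counts and miR-133a-3p took 22.7%, 20.6% and 21.7%. In TAC+PDE9A-I the share ran from 12.5% to 20.9% with a median of 18.4% (n = 6). The lowest value was replicate 5, the shallow library, and the highest share of the series was replicate 6.

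**Figure D1:**
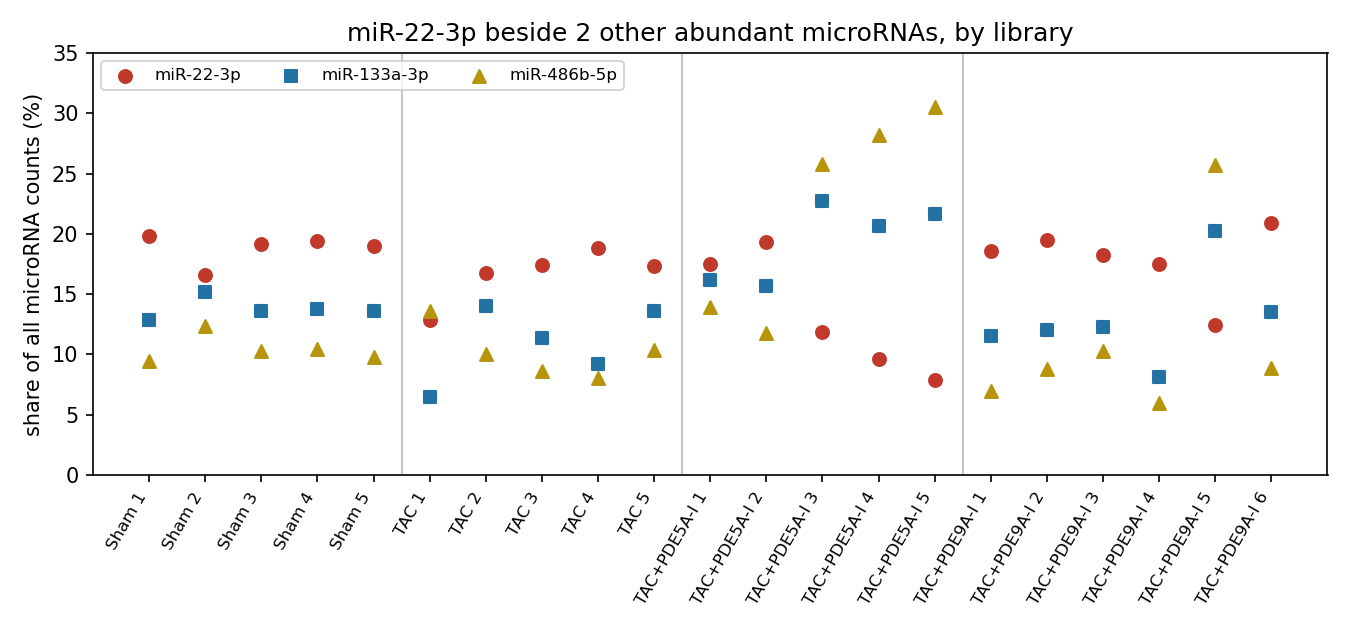
Share of all microRNA counts (percent, linear axis) taken by miR-22-3p, miR-133a-3p and miR-486b-5p in each of the 21 libraries, with vertical lines between groups. miR-22-3p is the highest of these 3 points in 16 libraries, and both others exceed it in TAC+PDE5A-I replicates 3, 4 and 5 and TAC+PDE9A-I replicate 5.

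The other strand was rare. miR-22-5p took 0.00840% ± 0.000959 of counts in Sham, 0.00761% ± 0.00244 in TAC, 0.00340% ± 0.00328 in TAC+PDE5A-I (n = 5 each) and 0.00735% ± 0.00289 in TAC+PDE9A-I (n = 6). It ranked 140 to 160 among microRNAs in Sham libraries and 155 to 301 in TAC+PDE5A-I libraries. Its counts were 271 to 670 in Sham and 9 to 272 in TAC+PDE5A-I, so its value carries more counting error than that of miR-22-3p, which had at least 95173 counts in every library.

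Between mice of a group, the scaled level of miR-22-3p varied by a coefficient of variation of 15.4% in Sham and 12.8% in TAC. Over the 61 and 59 microRNAs with a mean of at least 1000 CPM in these groups, the median was 13.4% and 18.7%. Of these, 38 of 61 varied less than miR-22-3p in Sham and 9 of 59 in TAC. In TAC+PDE5A-I its coefficient was 35.3%, where the median of 54 such microRNAs was 37.2% and 25 varied less, and in TAC+PDE9A-I it was 22.6%, where the median of 58 was 36.6% and 12 varied less. For miR-22-5p the coefficient was 18.3% in Sham and 92.7% in TAC+PDE5A-I, where the medians over all tested microRNAs with counts in the group were 20.0% and 59.5%.

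Scaled levels put the groups in the order Sham, TAC+PDE9A-I, TAC, TAC+PDE5A-I for miR-22-3p. In Sham replicates 1 to 5 it measured 256828, 179323, 226283, 197212 and 185887 CPM, a mean of 209107 ± 32171 (n = 5). In TAC replicates 1 to 5 it measured 142455, 161973, 148913, 195017 and 175067 CPM, a mean of 164685 ± 21084 (n = 5). The Sham and TAC ranges overlapped, since TAC replicate 4 lay above Sham replicates 2 and 5. In TAC+PDE9A-I the level ran from 120487 to 218374 CPM with a median of 164277 (172348 ± 38978, n = 6). In TAC+PDE5A-I replicates 1 to 5 it measured 165310, 171557, 140684, 90020 and 71008 CPM, a mean of 127716 ± 45112 (n = 5). Replicates 1 and 2 of this group lay inside the TAC range, and replicates 3, 4 and 5 below all TAC libraries. In whole tissue, fewer cells of a type and less RNA per cell cannot be told apart.

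For miR-22-5p the order of the means was Sham, TAC, TAC+PDE9A-I, TAC+PDE5A-I. Sham replicates 1 to 5 had 116, 104, 92.5, 73.2 and 82.0 CPM (93.6 ± 17.1, n = 5). TAC replicates 1 to 5 had 36.7, 83.7, 72.7, 85.1 and 94.3 CPM (74.5 ± 22.5, n = 5), where replicate 1 stood below the other 4. TAC+PDE5A-I replicates 1 to 5 had 67.0, 60.8, 15.2, 9.44 and 6.71 CPM (31.8 ± 29.5, n = 5), so that the 3 shallow libraries lay far below the other 2. TAC+PDE9A-I ran from 15.6 CPM in replicate 5, its shallow library, to 94.8 CPM, with a median of 79.0 (70.5 ± 28.9, n = 6).

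**Figure D2:**
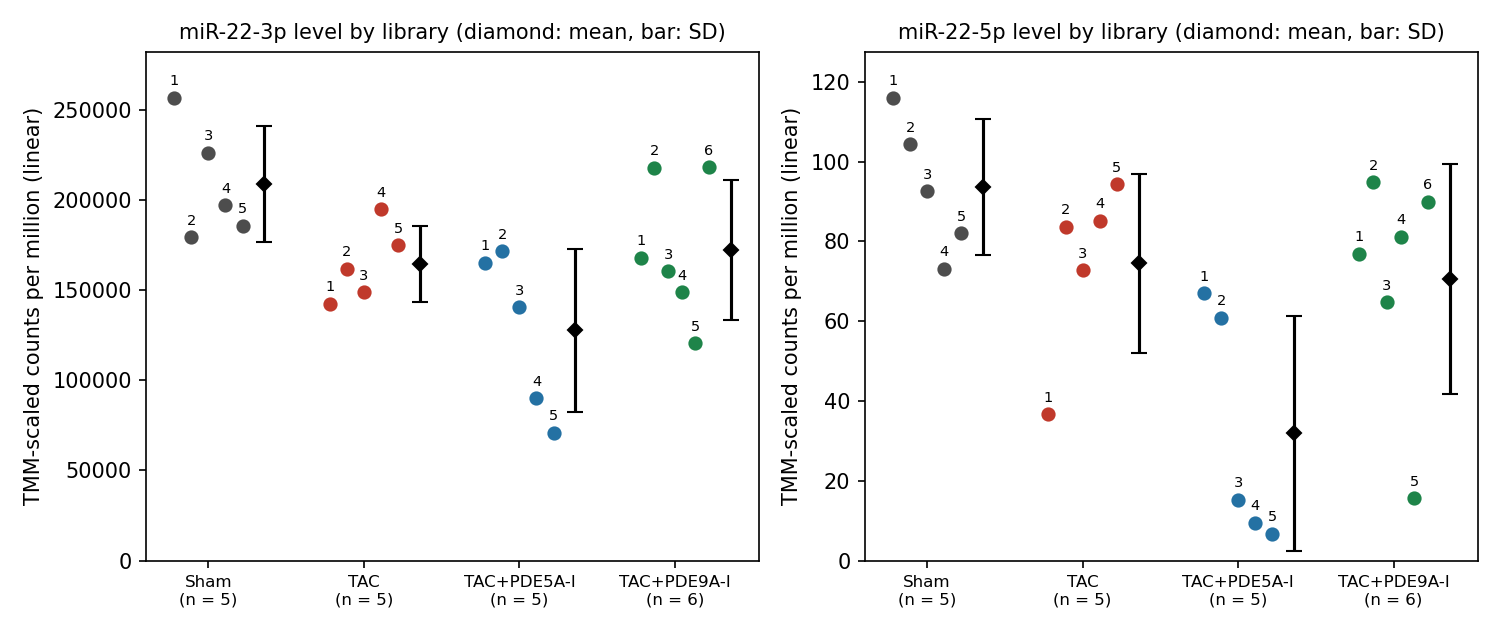
TMM-scaled CPM (linear axis from 0) of miR-22-3p and miR-22-5p in each library, numbered by replicate, with the mean (diamond) and SD (bar) of each group. TAC+PDE5A-I replicates 3, 4 and 5 and TAC+PDE9A-I replicate 5 are the lowest libraries of their groups on both strands.

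TAC against Sham asked whether pressure overload changed miR-22. Neither strand passed in edgeR, whose quasi-likelihood test was adjusted over all 561 microRNAs and called at an adjusted p under 0.05. The miR-22-3p mean was 1.27-fold lower in TAC, a log2 fold change of -0.34 ± 0.23 (SE; 95% interval -0.83 to 0.14; edgeR adjusted p = 0.577). For miR-22-5p the log2 fold change was -0.33 ± 0.52 (95% interval -1.41 to 0.75; edgeR adjusted p = 0.960). In this comparison 2.32% of all microRNAs were called, and the median log2 fold change of all was -0.08. Without the 4 shallow libraries miR-22-3p stood at -0.36 ± 0.14 and miR-22-5p at -0.34 ± 0.21 (edgeR adjusted p = 0.116 and 0.346). With only TAC and Sham fitted they stood at -0.21 ± 0.10 and -0.20 ± 0.22 (edgeR adjusted p = 0.197 and 0.572), each with a smaller SE than in the fit of all groups. The share of counts taken by miR-22-3p was 16.6% ± 2.25 in TAC and 18.8% ± 1.25 in Sham, a difference of -2.15 percentage points (n = 5 each; two-sided exact permutation p = 0.0873, adjusted p = 0.175 over 12 tests of shares). The groups overlapped on both strands, as they did not for 16.9% of all microRNAs. The labels give each mouse an ear tag number, from 3 ranges that are not stated to be batches. In the 100s, 3 Sham mice measured 179323 to 256828 CPM of miR-22-3p and 2 TAC mice 142455 and 161973 CPM. In the 600s, 2 Sham mice measured 185887 and 197212 CPM and 2 TAC mice 175067 and 195017 CPM, so the ranges were separate in the first and overlapped in the second.

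The other heart and striated muscle microRNAs of a fixed list gave few calls in TAC against Sham. Of 10 listed, miR-206-3p was at 0 in every library and 9 were tested. miR-208b-3p, which sits in the slow myosin gene Myh7, was the 1 that rose, where 2.14% of all microRNAs were called higher; it is named here after its values were seen. The other 8 did not pass, 0 fell, and the list's median log2 fold change was -0.51. Without the 4 shallow libraries 1 rose and 2 fell (miR-133b-3p and the metabolic regulator miR-378a-3p, at -0.66 ± 0.18 and -0.50 ± 0.14). In that fit 6.97% of the 660 microRNAs tested were called higher and 4.39% lower. In all libraries miR-133a-3p, a regulator of muscle growth, stood at -0.51 ± 0.25 (edgeR adjusted p = 0.349). miR-1a-3p, made with it from shared precursors, stood at -0.64 ± 0.83 (edgeR adjusted p = 0.909). Myh6, the adult cardiac myosin gene, holds miR-208a-3p (-0.72 ± 0.71), and Myh7b holds miR-499-5p (-0.84 ± 0.67); neither microRNA passed in edgeR. Markers of fibroblasts moved in this comparison: 2 of 3 rose, and their summed level was 5429 to 8206 CPM in TAC against 2132 to 2622 CPM in Sham. All 3 rose without the 4 shallow libraries. Their part in the lower mean of miR-22-3p was not tested.

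TAC+PDE5A-I against TAC asked what sildenafil changed in the overloaded heart. Neither strand passed, although 46.3% of all microRNAs were called in this comparison and the median log2 fold change of all was -0.31. The groups overlapped on both strands, as they did not for 33.9% of all. The log2 fold change was -0.37 ± 0.23 for miR-22-3p (95% interval -0.85 to 0.12; edgeR adjusted p = 0.202) and -1.20 ± 0.53 for miR-22-5p, a 2.29-fold lower fitted level (95% interval -2.30 to -0.10; edgeR adjusted p = 0.0678). As a share of counts miR-22-3p was 13.3% ± 4.97 in TAC+PDE5A-I and 16.6% ± 2.25 in TAC (n = 5 each; two-sided exact permutation p = 0.214, adjusted p = 0.367). Single libraries changed this result: miR-22-3p passed without TAC+PDE5A-I replicate 1 or 2 (-0.70 and -0.73, edgeR adjusted p = 0.0373 and 0.0191), and miR-22-5p passed without either of these or without TAC+PDE9A-I replicate 5 (-1.81, -1.74 and -1.25, edgeR adjusted p = 0.0184, 0.0191 and 0.0487). Without the 4 shallow libraries, which leaves 2 TAC+PDE5A-I mice, the log2 fold change of miR-22-3p turned to 0.05 ± 0.18 and that of miR-22-5p moved to -0.21 ± 0.28 (edgeR adjusted p = 0.910 and 0.663). With a correction for G and C content it turned to 0.50 ± 0.19 (edgeR adjusted p = 0.0715), and that of miR-22-5p to 0.01 ± 0.29 (edgeR adjusted p = 0.985). This correction also rescaled each library as a whole, and its 2 parts were not separated.

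Within the ear tag ranges that hold both TAC+PDE5A-I and TAC, miR-22-3p did not differ in the same direction. In the 500s, 2 TAC+PDE5A-I mice measured 165310 and 171557 CPM and the 1 TAC mouse 148913 CPM. In the 600s, 3 TAC+PDE5A-I mice measured 71008 to 140684 CPM and 2 TAC mice 175067 and 195017 CPM. All 3 TAC+PDE5A-I mice of the 600s are the shallow libraries of that group, so ear tag range and library depth cannot be told apart within it.

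Markers of other cell types moved in both directions in TAC+PDE5A-I against TAC, a comparison in which 24.8% of all microRNAs were called lower and 21.6% higher. Both endothelial markers, the 2 strands of miR-126a, summed to 999 to 15673 CPM against 25779 to 42972 CPM, with 1 of 2 lower by the test. The smooth muscle markers miR-143-3p and miR-145a-5p summed to 4830 to 43169 CPM against 70056 to 143376 CPM, 1 lower and 1 higher. All 3 erythroid markers fell, from a summed 445 to 1211 CPM to 23.1 to 416 CPM. Fibroblast markers summed to 1362 to 3581 CPM against 5429 to 8206 CPM, with 2 of 3 lower. Most of that sum was miR-199a-3p/miR-199b-3p (mean 1417 against 5857 CPM), while miR-214-3p did not pass and had a higher mean (463 against 249 CPM). Leukocyte markers summed to 2180 to 3150 CPM against 1397 to 2523 CPM, with 3 of 5 lower and 1 higher. The higher one, miR-150-5p (mean 2368 against 988 CPM), was the largest part of their sum. Without the 4 shallow libraries 1 of 2 endothelial, 1 of 2 smooth muscle, 2 of 3 erythroid, 3 of 5 leukocyte and 0 of 3 fibroblast markers were called lower and 0 were called higher. Of the 660 microRNAs tested in that fit, 12.3% were called lower and 6.21% higher. No marker of these lists was at 0 in a whole group. Their part in the miR-22 values was not tested.

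Of the heart and muscle list, 3 of 9 were called higher and 4 lower in TAC+PDE5A-I against TAC, where 21.6% of all microRNAs were called higher and 24.8% lower. With the 4 shallow libraries left out, 0 rose and 3 fell, and miR-133a-3p stood at 0.45 ± 0.25 and miR-499-5p at -1.33 ± 0.46 (edgeR adjusted p = 0.241 and 0.0524). In all libraries miR-133a-3p rose (0.82 ± 0.25, edgeR adjusted p = 0.0143), while miR-1a-3p, then miR-208a-3p, then miR-499-5p fell by 3.41 ± 0.90, 3.31 ± 0.78 and 2.37 ± 0.70 on the log2 scale (edgeR adjusted p = 0.00632, 0.00307 and 0.0114). The fold change of miR-22-3p lay between these, near the median of all microRNAs.

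TAC+PDE9A-I against TAC asked the same of the PDE9A inhibitor. The log2 fold change of miR-22-3p was 0.07 ± 0.22 (95% interval -0.40 to 0.53) and that of miR-22-5p -0.07 ± 0.49 (95% interval -1.10 to 0.95), each with an edgeR adjusted p of 0.991. edgeR called 0% of all microRNAs here, 16 had an unadjusted p under 0.05, and DESeq2 called 1. The share of miR-22-3p was 17.9% ± 2.88 (n = 6) against 16.6% ± 2.25 (n = 5; two-sided exact permutation p = 0.439, adjusted p = 0.659).

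The drugs were compared directly at matched treatment times, with no statement of dose in the labels. TAC+PDE5A-I against TAC+PDE9A-I gave a log2 difference of -0.43 ± 0.22 for miR-22-3p (95% interval -0.90 to 0.03; edgeR adjusted p = 0.132) and of -1.12 ± 0.51 for miR-22-5p (95% interval -2.18 to -0.06; edgeR adjusted p = 0.0915), where 34.8% of all microRNAs were called, 19.6% lower and 15.2% higher in TAC+PDE5A-I. The groups overlapped on both strands, as they did for all but 1.96% of microRNAs. Leaving out a single library changed this result. Without TAC+PDE9A-I replicate 5, both strands passed (-0.64 and -1.38, edgeR adjusted p = 0.0353 and 0.0336), and so they did without TAC+PDE5A-I replicate 1 (-0.73 and -1.73) or 2 (-0.72 and -1.60). Without all 4 shallow libraries the differences were -0.12 ± 0.19 and -0.36 ± 0.29 (edgeR adjusted p = 0.685 and 0.421), and the share of miR-22-3p was 18.4% in TAC+PDE5A-I (2 mice) and 18.9% in TAC+PDE9A-I (5 mice; two-sided exact permutation p = 0.714; arrangements of 2 against 5 mice allow no value under 0.0476).

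Against Sham, miR-22 was lower on both strands in TAC+PDE5A-I. miR-22-3p fell 1.64-fold (log2 -0.71 ± 0.23; 95% interval -1.20 to -0.22; edgeR adjusted p = 0.0199) and miR-22-5p 2.88-fold (log2 -1.53 ± 0.53; 95% interval -2.63 to -0.42; edgeR adjusted p = 0.0272). In this comparison 42.6% of all microRNAs were called, 23.5% lower and 19.1% higher, and the groups did not overlap in scaled CPM for 32.8% of them, among them both strands of miR-22. The share of miR-22-3p did overlap, since TAC+PDE5A-I replicate 2 (19.3%) lay within the Sham range, and its test did not pass (two-sided exact permutation p = 0.0714, adjusted p = 0.175). The share of miR-22-5p was lower in 5 of 5 TAC+PDE5A-I libraries than in any Sham library (two-sided exact permutation p = 0.00794, adjusted p = 0.0952), and 5 against 5 libraries allow no smaller unadjusted value. Both edgeR calls ended without the 4 shallow libraries (log2 -0.31 ± 0.19 and -0.55 ± 0.29, edgeR adjusted p = 0.284 and 0.208), with scaling by total counts (-0.50 and -1.28, edgeR adjusted p = 0.0665 and 0.0625) and without Sham replicate 1 (-0.63 and -1.44, edgeR adjusted p = 0.0568 and 0.0552). The call on miR-22-5p also ended without TAC+PDE5A-I replicate 3, 4 or 5 or TAC+PDE9A-I replicate 3 or 6 (-1.44 to -1.36, edgeR adjusted p from 0.0506 to 0.0862). In the ear tag 600s, the 1 range with both groups, 3 TAC+PDE5A-I mice, all shallow libraries, measured 71008 to 140684 CPM of miR-22-3p and 2 Sham mice 185887 and 197212 CPM. With the correction for G and C content, which also rescaled each library, the fold change of miR-22-3p turned to 0.19 ± 0.19 (edgeR adjusted p = 0.505). That of miR-22-5p moved to -0.23 ± 0.29 (edgeR adjusted p = 0.586).

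TAC+PDE9A-I did not pass against Sham on either strand (miR-22-3p log2 -0.28 ± 0.22, miR-22-5p -0.40 ± 0.49; edgeR adjusted p = 0.874 and 0.949), where 1.96% of all microRNAs were called and the groups did not overlap for 3.92%. Among neighbours in the order of levels, therefore, no pair passed this test for either strand. In this edgeR fit the only pair of groups that passed was the highest and the lowest. DESeq2 also called both strands in TAC+PDE5A-I against TAC (adjusted p = 0.0357 and 0.0264) and between the drugs (adjusted p = 0.0155 and 0.0313). With replicate number or ear tag range as covariate, edgeR called miR-22-5p in TAC+PDE5A-I against TAC (adjusted p = 0.0301 and 0.0384). The SE of the main edgeR test comes from 1 fit of all 4 groups, so it is not the spread of each pair alone.

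**Figure D3:**
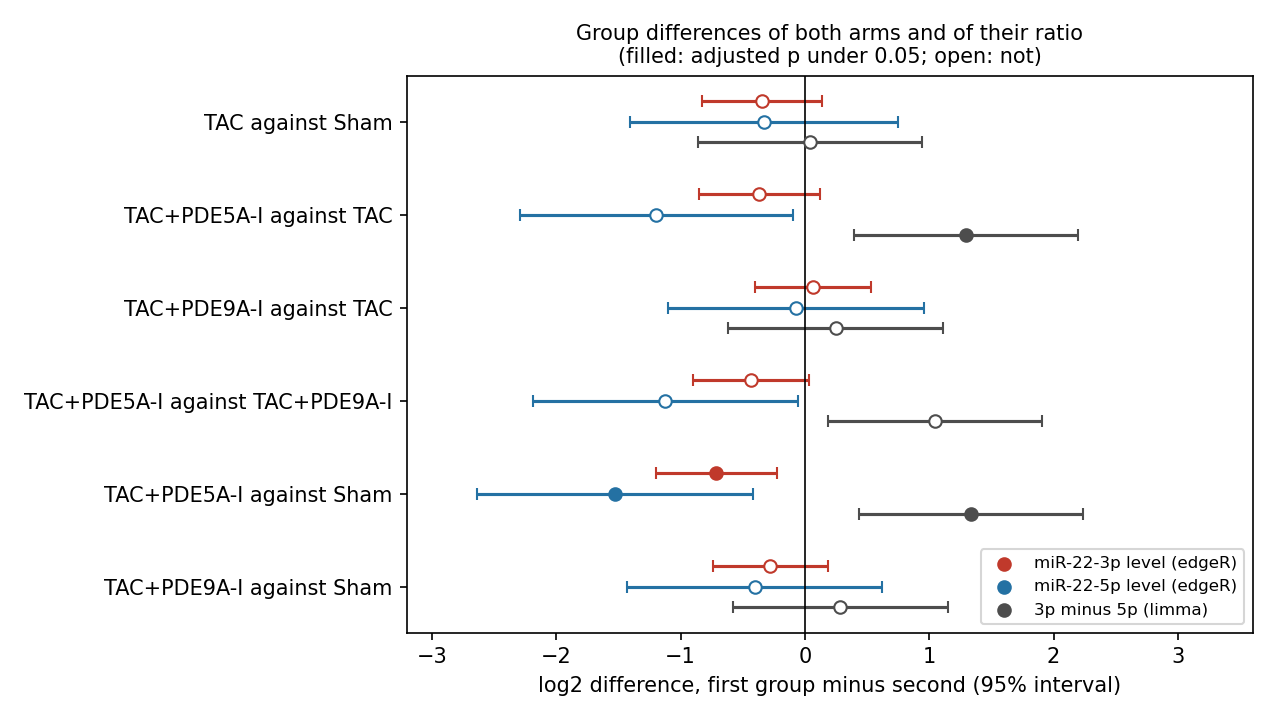
Log2 differences with 95% intervals for the 6 comparisons, first group minus second: the levels of miR-22-3p and miR-22-5p (edgeR) and the difference of the strands (limma, 3p minus 5p). Filled points passed at an adjusted p under 0.05: both strands in TAC+PDE5A-I against Sham, and the strand difference in TAC+PDE5A-I against TAC and against Sham.

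The balance of the strands was the most uneven feature of miR-22. In Sham replicates 1 to 5, 2214, 1719, 2445, 2694 and 2266 reads of miR-22-3p were counted for each read of miR-22-5p. By the mean log2 difference of 11.1, this was the hairpin with the third-largest imbalance of the 161 hairpins with both strands tested (rank 3, after miR-10b and miR-192, in which the 5p strand prevails). Written the other way, 5p reads numbered 45.1 ± 7.96 per 100000 miR-22 reads in Sham and 44.7 ± 11.3 in TAC (n = 5 each). TAC replicate 1 had 25.8 (95% exact Clopper-Pearson interval 22.2 to 29.7), the other 4 TAC libraries 43.6 to 53.8.

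In TAC+PDE5A-I replicates 1 and 2 the 5p strand made up 40.5 and 35.4 of 100000 miR-22 reads, the first inside and the second just under the Sham range of 37.1 to 58.2. In replicates 3, 4 and 5 it made up 10.8 (95% interval 6.70 to 16.5), 10.5 (5.73 to 17.6) and 9.46 (4.32 to 17.9), from 21, 14 and 9 reads. TAC+PDE9A-I replicate 5 had 13.0 (8.39 to 19.1), from 25 reads, and the other 5 libraries of its group 40.4 to 54.5. The upper limits of these 4 shallow libraries lie below the lower limits of the other 17. The intervals cover counting error only, because reads copied by PCR and carrying no molecular identifier cannot be counted as separate molecules.

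**Figure D4:**
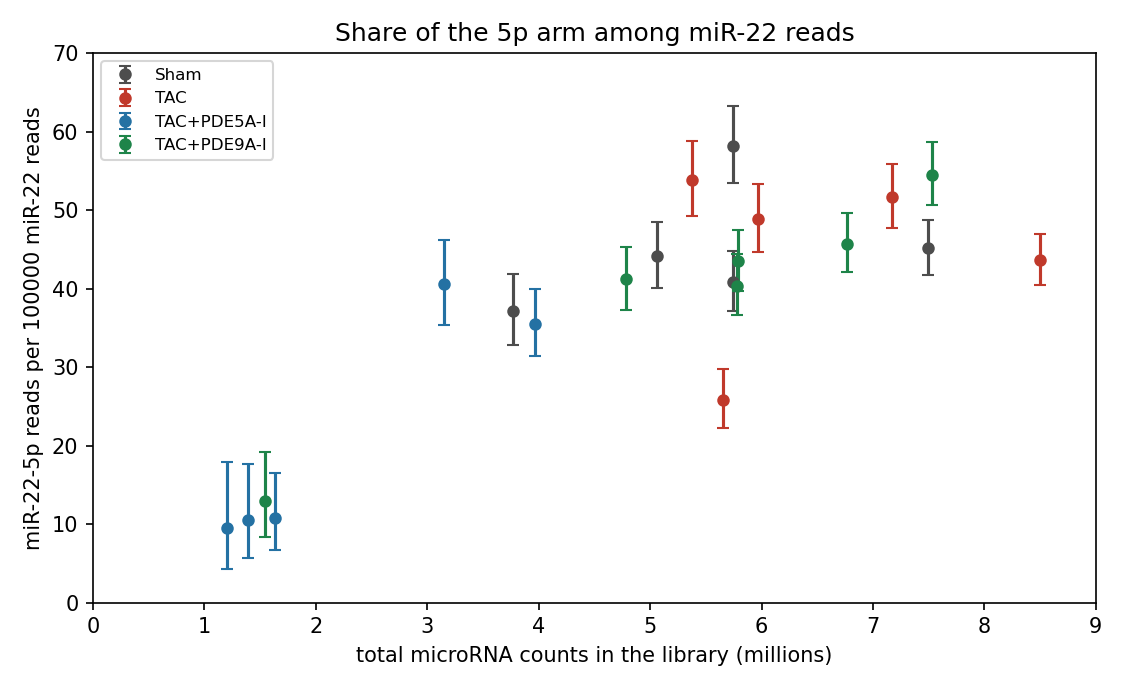
Reads of miR-22-5p per 100000 miR-22 reads against the total microRNA counts of the library (both axes linear), with 95% exact binomial intervals and colours for the 4 groups. The 4 libraries under 2000000 counts lie between 9.46 and 13.0, TAC replicate 1 at 25.8 and the other 16 libraries between 35.4 and 58.2.

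The strand difference was tested with limma across all 161 hairpins, as the log2 level of the 3p strand minus that of the 5p strand, a measure that common scaling factors leave unchanged. It rose by 1.29 ± 0.43 in TAC+PDE5A-I against TAC (2.45-fold; 95% interval 0.39 to 2.20; limma adjusted p = 0.0218) and by 1.33 ± 0.43 against Sham (2.52-fold; 95% interval 0.43 to 2.23; limma adjusted p = 0.0200). Such calls were common, at 46% and 40.4% of all hairpins, and 70 hairpins had a larger difference than miR-22 in the first of these comparisons. Of the 74 called there, 41 moved toward the 3p strand, as miR-22 did, and 33 toward the 5p strand. The group ranges of miR-22 overlapped in both comparisons, while those of 28% and 25.5% of hairpins did not. Without the 4 shallow libraries the differences were 0.19 ± 0.26 and 0.23 ± 0.26 (limma adjusted p = 0.680 and 0.626), and both calls also ended without any 1 of TAC+PDE5A-I replicates 3, 4 or 5 (limma adjusted p from 0.0550 to 0.0639).

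The strand difference was 0.04 ± 0.43 in TAC against Sham (95% interval -0.86 to 0.94; limma adjusted p = 0.989) and 0.25 ± 0.41 in TAC+PDE9A-I against TAC (limma adjusted p = 0.877). In these comparisons 0% of hairpins were called, with 7 and 2 at an unadjusted p under 0.05, and the groups did not overlap for 3.73% and 1.24%. In TAC+PDE9A-I against Sham it was 0.29 ± 0.41 (limma adjusted p = 0.843), where 1.86% of hairpins were called and 4.35% did not overlap. Between the drugs it was 1.05 ± 0.41 (95% interval 0.19 to 1.91; limma adjusted p = 0.0611), where 30.4% of hairpins were called. It passed without TAC+PDE9A-I replicate 5 (1.34, limma adjusted p = 0.00610) and without TAC+PDE5A-I replicate 1 or 2 (1.34 and 1.29, limma adjusted p = 0.0150 and 0.0209). Without the 4 shallow libraries it was 0.24 ± 0.26 (limma adjusted p = 0.609).

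These shifts were set against the G and C content of the strands, which is fixed by their sequence. Across 136 hairpins with both sequences in the RefSeq table, the shift toward 3p in TAC+PDE5A-I against TAC went with the G and C content of the 3p strand minus that of the 5p strand (Spearman rho = 0.546). The rho was 0.504 in TAC+PDE5A-I against Sham and 0.537 in TAC+PDE5A-I against TAC+PDE9A-I. It was 0.285 in TAC+PDE9A-I against TAC, 0.168 in TAC+PDE9A-I against Sham and -0.148 in TAC against Sham. These hairpins come from the same libraries and are not independent. In miR-22 the 3p strand holds 4.55 percentage points more G and C than the 5p strand, and the part of this in its shift was not tested.

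The microRNAs whose level followed miR-22-3p most closely over the 21 libraries, by Pearson r of log2 CPM among 301 candidates with a mean of at least 10 CPM, were miR-30c-5p (0.943), miR-126a-3p of endothelium (0.940), miR-133a-5p, the other strand of the miR-133a hairpin (0.938), miR-186-5p (0.923) and miR-126b-5p (0.907). The median over the candidates was 0.184, and miR-22-5p stood at 0.894. Over the 17 libraries with at least 2000000 counts, r was 0.846, 0.953, 0.903, 0.788 and 0.725 in the same order, and 0.676 for miR-22-5p. There the 5 ranked 3, 1, 2, 6 and 10 among the candidates. For miR-22-5p the 5 closest were miR-30b-5p (0.975), miR-20a-5p (0.973), let-7g-5p (0.970), miR-15a-5p (0.969) and miR-194-5p (0.968). In the 17 deeper libraries their r was 0.822, 0.644, 0.596, 0.616 and 0.661, and they ranked 2, 16, 27, 20 and 11. All points share library depth and composition, so r describes these libraries only.

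Those of the closest followers found by name in the RefSeq table used here are shown to compare their seeds, again in capitals, with those of miR-22. miR-133a-5p and miR-30b-5p were not found there by name and are left out.

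miR-30c-5p: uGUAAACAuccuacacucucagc
miR-126a-3p: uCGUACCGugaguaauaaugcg
miR-186-5p: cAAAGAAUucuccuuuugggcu
miR-126b-5p: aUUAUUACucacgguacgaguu
miR-20a-5p: uAAAGUGCuuauagugcagguag
let-7g-5p: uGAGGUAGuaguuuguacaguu
miR-15a-5p: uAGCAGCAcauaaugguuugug
miR-194-5p: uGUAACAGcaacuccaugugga

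None shares its seed with either strand of miR-22. They hold 45.5% (miR-126a-3p and miR-194-5p), 43.5% (miR-30c-5p), 40.9% (miR-186-5p and miR-15a-5p), 39.1% (miR-20a-5p) and 36.4% (let-7g-5p and miR-126b-5p) G or C, where the median over the 487 tested microRNAs with a sequence was 50.0%.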

How the data were processed

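The deposited table holds raw counts of reads per mature microRNA for 21 libraries, as the authors counted them and with no scaling. The submitters' processing notes name Bowtie 1.1.1, DESeq 1.26.0, cutadapt 1.8 and CASAVA 1.8.4 but not what each was used for. The build and annotation behind the counts are unknown here. The table has 25958 lines, of which 24055 were blank and held no value. Total counts ran from 1205417 to 8497792, and 3 counts, the limit that a count of 0 allows, equal 0.353 to 2.49 CPM. The smallest value above 0 was 2.

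Counts were fitted in R 4.3.3 with edgeR 4.0.16 (filterByExpr by group, TMM, robust quasi-likelihood, all 4 groups, 17 residual degrees of freedom), with Benjamini-Hochberg adjustment over 561 microRNAs. SE were derived from the fold change and F. Strand differences used limma 3.58.1 on log2 CPM with a prior count of 2, and shares of counts used two-sided exact permutation tests (252 or 462 arrangements, adjusted over 12). The fits were tested on simulated data. DESeq2 1.42.0, other scalings, no filter, pairs of groups, the replicate number, the ear tag range, G and C content (per-library loess with span 0.75; 487 of 561 microRNAs had a sequence, 86.8%) and leaving out each library were tried. The loess fits were not centred, so the G and C correction also rescaled each library as a whole. RNAfold was version 2.7.2.

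Named microRNAs were both strands of miR-22, the first by share in Sham, the 5 closest followers of each strand and the first members of the fixed lists, of which the list of other tissues is given in the closing section. These choices were made with earlier results of these data known. Leaving out the libraries under 2000000 counts was chosen after seeing the data.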

Additional observations from a re-analysis of the deposited data

Results flagged for a closer look

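In each group the lowest and highest library of 5 quantities (scaled level and share of both strands, and the 5p share of miR-22 reads) was set against its nearest neighbour with Dixon's ratio, 20 tests in all, of which chance passes about 1 in 20; the quantities are not independent. In Sham, replicate 2 stood apart with a miR-22-3p share of 16.6%, where the next was 19.0%. In TAC, replicate 1 stood apart with a miR-22-5p share of 0.00331%, where the next was 0.00820%. In TAC+PDE9A-I, replicate 5, the library of that group under 2000000 counts, stood apart with a miR-22-5p share of 0.00162% (next 0.00737%) and with 13.0 reads of miR-22-5p per 100000 miR-22 reads (next 40.4).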

How the results depend on the processing

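All values are log2 differences unless stated, and adjusted p come from edgeR, DESeq2 or limma. Of 696 values under an alternative, 615 kept their direction and their side of the threshold, 35 changed direction, 23 came to pass and 23 no longer passed. The cause was not tested, and where libraries were left out there were also fewer samples. The edgeR and DESeq2 level differences in TAC against Sham kept their direction in every alternative run and passed on neither strand.

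For TAC+PDE5A-I against TAC, miR-22-3p was 0.086 with upper-quartile scaling and -0.54 with DESeq2 (adjusted p = 0.0357). It was 0.50 with G and C correction and 0.048 without the 4 shallow libraries. In the same comparison miR-22-5p was -1.34 with DESeq2 (adjusted p = 0.0264) and -1.57 with ear tag range as covariate (edgeR adjusted p = 0.0384). With G and C correction it was 0.0096. For TAC+PDE9A-I against TAC, miR-22-3p was -0.015 without the filter, and miR-22-5p was 0.10 with G and C correction and 0.15 without the shallow libraries. Between the drugs, miR-22-3p was -0.62 both with RLE scaling (edgeR adjusted p = 0.0440) and with DESeq2 (adjusted p = 0.0155). With G and C correction it was 0.16, and miR-22-5p was -1.29 with DESeq2 (adjusted p = 0.0313). For TAC+PDE5A-I against Sham, miR-22-3p was -0.50 with total counts, -0.25 with upper-quartile scaling, 0.19 with G and C correction and -0.31 without the shallow libraries, and miR-22-5p was -1.28 with total counts, -1.62 with only these groups fitted, -0.23 with G and C correction and -0.55 without the shallow libraries. For TAC+PDE9A-I against Sham, miR-22-3p was 0.034 with G and C correction.

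The strand difference of TAC+PDE5A-I was 1.29 against TAC with only these groups fitted (adjusted p = 0.0515) and 1.05 against TAC+PDE9A-I with both strands at 10 CPM or more (adjusted p = 0.0368). Without the shallow libraries the strand difference was 0.19 against TAC and 0.23 against Sham for TAC+PDE5A-I, and -0.046 and -0.0080 for TAC+PDE9A-I. The share of miR-22-3p in TAC+PDE5A-I minus TAC was 0.943 percentage points with miR-133a-3p and miR-486b-5p out of the total and 1.8 without the shallow libraries. In TAC+PDE9A-I, without the shallow library, the share of miR-22-3p minus Sham was 0.156 and that of miR-22-5p 0.000895 minus TAC and 9.72e-05 minus Sham.

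Leaving out each library in turn gave -0.73 to -0.31 (miR-22-3p) and -1.81 to -1.08 (miR-22-5p) for TAC+PDE5A-I against TAC, -0.060 to 0.15 and -0.25 to 0.13 for TAC+PDE9A-I against TAC, -0.73 to -0.41 and -1.73 to -1.0 between the drugs, and -0.93 to -0.63 and -2.02 to -1.36 for TAC+PDE5A-I against Sham. The strand difference ran from -0.15 to 0.12 in TAC against Sham, 1.08 to 1.59 in TAC+PDE5A-I against TAC, -0.046 to 0.43 in TAC+PDE9A-I against TAC, 0.84 to 1.34 between the drugs, 1.12 to 1.63 in TAC+PDE5A-I against Sham and -0.0077 to 0.40 in TAC+PDE9A-I against Sham. The share of miR-22-5p ran from -0.00123 to 0.000276 percentage points in TAC against Sham, -0.00133 to 0.000895 in TAC+PDE9A-I against TAC, -0.00510 to -0.00329 between the drugs (passing without TAC+PDE9A-I replicate 5) and -0.00149 to 9.72e-05 in TAC+PDE9A-I against Sham, and that of miR-22-3p from -1.52 to 0.156 in the last.

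Replicate numbers did not pair the samples: over 30 same-numbered pairs the correlation of deviations ran from -0.208 to 0.351, 7 were over 0.1, and in 4 a sample correlated best with its own number. With a replicate block, miR-22-5p was -1.61 in TAC+PDE5A-I against TAC (edgeR adjusted p = 0.0301) and miR-22-3p -0.058 in TAC+PDE9A-I against TAC.

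The number of microRNAs called ranged widely. It was 13 in TAC against Sham (3 to 98 over all alternatives, 75 without the shallow libraries), 260 in TAC+PDE5A-I against TAC (114 to 290, 122), 0 in TAC+PDE9A-I against TAC (0 to 2, 2), 195 between the drugs (0 to 252, 104), 239 in TAC+PDE5A-I against Sham (120 to 275, 120) and 11 in TAC+PDE9A-I against Sham (1 to 37, 37). Strand differences called in TAC+PDE5A-I against TAC, TAC+PDE9A-I and Sham numbered 74, 49 and 65 in all libraries. Without the shallow libraries 37, 38 and 39 were called, and the overlap of these calls was not counted. Depth limits miR-22-5p, which had 9 to 25 counts in the shallow libraries. Of the markers of other tissues, 2 of 3 were called lower in TAC+PDE5A-I against TAC (1 of 4 without the shallow libraries), where 24.8% of all microRNAs were called lower, and miR-124-3p was at 0 throughout.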
